A study of Mus musculus with 3 samples.

Results

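Ser5-phosphorylated Pol_II was followed at 8 genes of the inflammasome pathway in mouse macrophages: the sensors Nlrp3, Nlrc4, Naip2 and Naip5, the adaptor Pycard, and the caspases Casp1, Casp4 and Casp8. The genes were chosen by name, not by a threshold on their tag counts, out of 22350 protein-coding genes of the GENCODE M1 annotation on chromosomes 1 to 19 and X of mm9. All 8 were found in that annotation. Macrophages were grown for 7 days from the bone marrow of female Fvb mice (Fvb/Hsd in the study's methods) in medium conditioned by L929 cells, a fibroblast line that secretes the macrophage growth factor CSF1. An untreated culture and a culture given 10 ng/ml LPS, the endotoxin of Gram-negative bacteria, for 2 h were used for ChIP-Seq with the antibody ab5131 against the Ser5-phosphorylated repeat of the Pol_II tail. A library of input DNA from untreated cells, sequenced without immunoprecipitation, gave the background. No genotype other than the strain is named, and the labels do not say how many mice were pooled. Each condition had 1 library, so no difference has a replicate check, no test was made, and every interval below is a 95% interval for counting error alone.

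Inflammasomes are protein platforms that macrophages assemble in the cytosol when they sense infection or damage. Nlrp3 responds to ion fluxes and membrane injury, whereas NAIP proteins bind bacterial flagellin and secretion-system proteins and then activate Nlrc4. Pycard (ASC) links the sensors to Casp1, which matures IL-1β and IL-18 and cleaves gasdermin D, and Casp4 (the mouse caspase-11) is activated by LPS that has entered the cytosol. Casp8 is the initiator caspase of death receptors and also restrains necroptosis. In macrophages LPS is known as the priming signal that precedes inflammasome activation. Ser5 phosphorylation of the Pol_II tail accompanies initiation and is densest near the TSS of transcribed genes.

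In mm9 the genes lie at chr11:59355070-59380458 (Nlrp3, plus strand), chr17:74825635-74858448 (Nlrc4, minus), chr7:135135617-135137381 (Pycard, minus), chr9:5298517-5307265 (Casp1, plus), chr9:5308828-5336783 (Casp4, plus), chr1:58852218-58904347 (Casp8, plus), chr13:100914018-100972047 (Naip2, minus) and chr13:100981694-101016278 (Naip5, minus). Casp1 and Casp4 are neighbours on the same strand, as are Naip5 and Naip2. No other annotated gene overlapped any of the gene bodies or the windows of 1 kb on each side of the TSS. The promoter sequences of the genes whose Ser5 density differed most between the libraries were read from the mm9 genome and are shown from -250 to -1 relative to the TSS, 5′ to 3′ on the gene's own strand. Capitals mark matches to the motifs described next.
Nlrp3, chr11:59354820-59355069, plus strand: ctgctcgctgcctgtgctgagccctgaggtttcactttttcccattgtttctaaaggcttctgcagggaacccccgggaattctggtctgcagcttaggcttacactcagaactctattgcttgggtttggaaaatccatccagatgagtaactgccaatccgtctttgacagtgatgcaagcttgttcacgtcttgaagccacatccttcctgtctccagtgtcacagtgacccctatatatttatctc
Casp1, chr9:5298267-5298516, plus strand: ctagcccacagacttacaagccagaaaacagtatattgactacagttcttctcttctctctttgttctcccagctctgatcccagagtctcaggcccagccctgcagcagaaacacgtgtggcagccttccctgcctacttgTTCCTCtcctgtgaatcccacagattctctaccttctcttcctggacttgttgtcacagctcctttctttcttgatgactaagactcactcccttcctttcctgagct
Casp4, chr9:5308578-5308827, plus strand: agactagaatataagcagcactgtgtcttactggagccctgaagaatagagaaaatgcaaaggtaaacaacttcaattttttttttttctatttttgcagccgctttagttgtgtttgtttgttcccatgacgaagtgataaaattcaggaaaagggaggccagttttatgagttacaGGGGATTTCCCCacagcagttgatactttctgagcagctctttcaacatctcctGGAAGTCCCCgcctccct
Pycard, chr7:135137382-135137631, minus strand: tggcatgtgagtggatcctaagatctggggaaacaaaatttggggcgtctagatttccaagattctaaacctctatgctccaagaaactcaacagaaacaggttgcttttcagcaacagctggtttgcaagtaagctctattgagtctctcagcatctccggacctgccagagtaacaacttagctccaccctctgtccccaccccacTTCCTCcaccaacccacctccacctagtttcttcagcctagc

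The motifs were searched on both strands from 250 bases before to 50 bases after the TSS, and each share is that of the 22350 coding promoters of the same length that hold the motif. A kB motif of 3 G, any 2 bases, 3 T and 2 C, the kind of sequence NF-kB binds, was found at Casp4 among the 8 genes, starting at -72 on the gene's strand and at 8 on the other strand (1.61% of promoters). A looser form, 3 G and TCC with any 4 bases between them, which includes every match of the first, was also found only at Casp4 among the 8, with further matches on the other strand at -70, overlapping the first, and at -18 (20.1% of promoters). The ETS core GAGGAA, which PU.1 can bind, was found on the other strand at Pycard, at -42, and at Casp1, at -108 (28.0% of promoters). The ISRE-like pair of GAAA with any 2 bases between (3.84%), the AP-1 site TGANTCA (6.79%) and TATAAA (13.4%) were not found in the 8 windows. All 8 promoters held few CG dinucleotides, between 0 at Naip2 and 6 at Casp8, against a median of 12 over all coding promoters. A match is a description of the letters and not a binding site.

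The libraries held 7616771 tags (untreated Ser5), 6249819 (Ser5 after LPS) and 7533308 (input) on chromosomes 1 to 19 and X, and density is given as TPM per kb, where TPM stands for tags (not transcripts) scaled to 1000000 of these tags. At 4 LPS-responsive genes fixed as a check of the label the gene-body ratio of LPS to untreated was between 6.17 (Nfkbia) and 396 (Ccl5), with Tnf at 9.62 and Il1b at 44.5. All 8 macrophage markers examined held a Ser5 peak in both libraries, between 1.15 and 105 TPM per kb over the body in untreated cells. Markers of T cells, fibroblasts, erythroid and mast cells had no Ser5 peak. Their body densities ranged from 0 to 0.265 untreated and from 0 to 0.209 after LPS. The value of 0 is that of the globin gene Hba-a1, whose body held 0 tags in all 3 libraries. Since its input was 0 too, the Hba-a1 body says nothing about erythroid cells. Of 6 neutrophil markers Camp held 11 tags untreated and 29 after LPS, with peaks in the LPS list only, and S100a8 had a peak in the untreated list, while of 4 B cell markers Cd79a had a peak after LPS and of 3 dendritic cell markers Zbtb46 had a peak in untreated cells. These traces of other lineages were not tested for a part in the results. In such bulk chromatin, fewer cells that carry Pol_II at a gene and less Pol_II per cell cannot be told apart.

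The tags differed in length between the libraries, 45 bases for untreated Ser5, 30 for LPS and 36 for input, and the authors kept only tags that matched the genome once with at most 2 mismatches. The share of positions that such tags can mark was therefore computed for each gene. At the TSS windows of Nlrp3 and Pycard it was above 98% for every length, and for Casp1 and Casp4 it was between 88.8% and 98.6%. Naip5 was almost closed to all 3 libraries, with 5.75%, 1.75% and 3.05% of its TSS window open to untreated, LPS and input tags and 22.1%, 12.2% and 16.1% of its body. The bodies of Casp8 (67.6% untreated, 51.5% LPS) and Naip2 (69.3%, 56.1%) were more open to the longer untreated tags. The bodies of Casp4 (80.6%, 66.6%) and Nlrc4 (83.8%, 73.0%) differed likewise. In all 8 bodies the LPS tags had the lowest share, so LPS counts can be understated relative to untreated ones. A ratio per open position is therefore given beside the plain one for the 5 genes just named and Nlrp3, and it was 3.49 over the Casp1 body and 0.418 over that of Pycard.

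**Figure D1:**
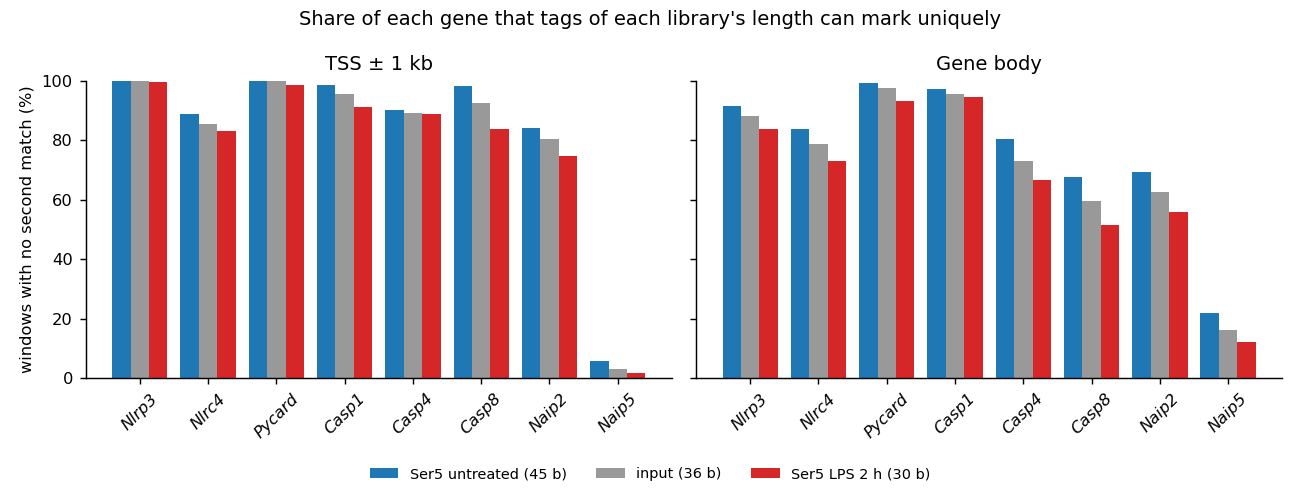
Percent of windows (y axis) that match no other place in mm9 with up to 2 mismatches, for each gene and each library's tag length, in the TSS ± 1 kb (left) and the gene body (right). Naip5 stands apart with at most 5.75% at its TSS and 22.1% over its body, and in the bodies the bars for the 30-base LPS tags are the lowest.

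Nlrp3, Casp1 and Casp4 carried more Ser5 after LPS, Pycard carried less, and Casp8 and Naip2 were close to even. A gene is said below to have risen or fallen when its scaled count after LPS was at least 2 times higher or lower than untreated and the libraries together held at least 10 of its Ser5 tags. Over the gene body 3 of the 8 genes rose, against 5.83% of the 17386 coding genes with enough tags, and 1 fell, against 11.3%. At the TSS ± 1 kb 3 rose, against 5.59% of 12545 genes, and 2 fell (Nlrc4 and Pycard), against 14.1%. The median ratio of the 8 was 1.04 over the body and 0.846 at the TSS, beside 0.874 and 0.832 for coding genes. With 8 genes, 1 or 2 falls do not set them apart from coding genes at large.

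Measured against input, 4 of the 8 bodies were at least 2 times higher in untreated Ser5 (Nlrp3, Pycard, Casp1 and Casp8), against 37.6% of coding genes, and 5 after LPS, when Casp4 joined them, against 32.9%. At the TSS 7 were at least 2 times above input in untreated cells, all but Nlrc4, against 72.1% of coding genes, and 6 after LPS, all but Nlrc4 and Naip5, against 70.5%. Naip5, with 5 tags after LPS and 0 in input, was left out of that count by the minimum of 10 tags and not by its ratio. Its place in the untreated count rests on 12 tags against an input count of 0 set to 0.5. None of those tags lay within 500 bp of the TSS. Nlrc4 after LPS was at least 2 times below input, against 14.0%. These shares at the TSS are near those of coding genes at large. Scaling to the tags outside peaks instead raises every ratio to input, so that a ratio near 1 can lie on either side of it. At the Nlrc4 TSS that scaling gave 2.06 times the input untreated and 0.827 times after LPS. The calls made above for the Nlrc4 TSS therefore rest on the scaling.

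**Figure D2:**
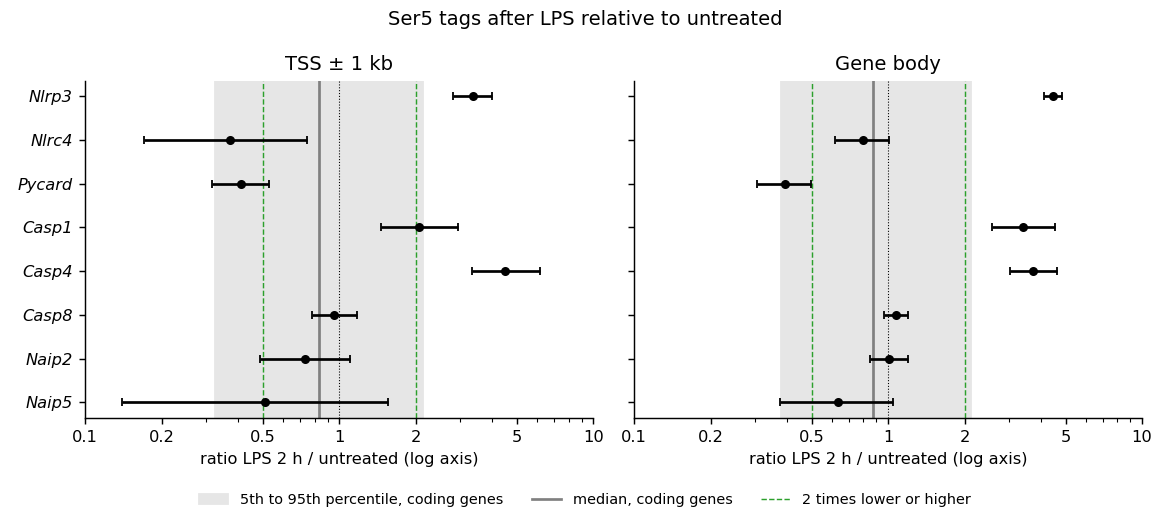
Ratio of LPS to untreated Ser5 TPM (x axis, log scale) at the TSS ± 1 kb (left) and over the gene body (right) for the 8 genes, with 95% counting intervals. Grey band and line give the 5th to 95th percentile and median of coding genes. Over the body Nlrp3, Casp1 and Casp4 lie right of the band, at 3.40 to 4.45, and Pycard lies at 0.392.

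The order of the genes changed with LPS. In untreated cells the TSS density was 15.9 TPM per kb at Pycard (interval 14.0 to 18.1), 14.1 at Casp8 (12.3 to 16.1) and 11.5 at Nlrp3 (9.84 to 13.3). Pycard and Casp8 overlapped in their intervals, as did Casp8 and Nlrp3. The values then dropped to 4.46 at Naip2, 3.67 at Casp4, 3.61 at Casp1 and 2.36 at Nlrc4, a run whose neighbours all overlapped, and 0.787 at Naip5. After LPS Nlrp3 came first, at 38.5 (35.1 to 42.1), clear of Casp4 at 16.6. Casp8 followed at 13.5, overlapping Casp4, then Casp1 at 7.44 and Pycard at 6.56, which overlapped each other. Naip2 at 3.28, Nlrc4 at 0.880 and Naip5 at 0.400 were last. Casp4 thus moved from below Naip2 to the second place, and Pycard from the first place to the fifth.

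**Figure D3:**
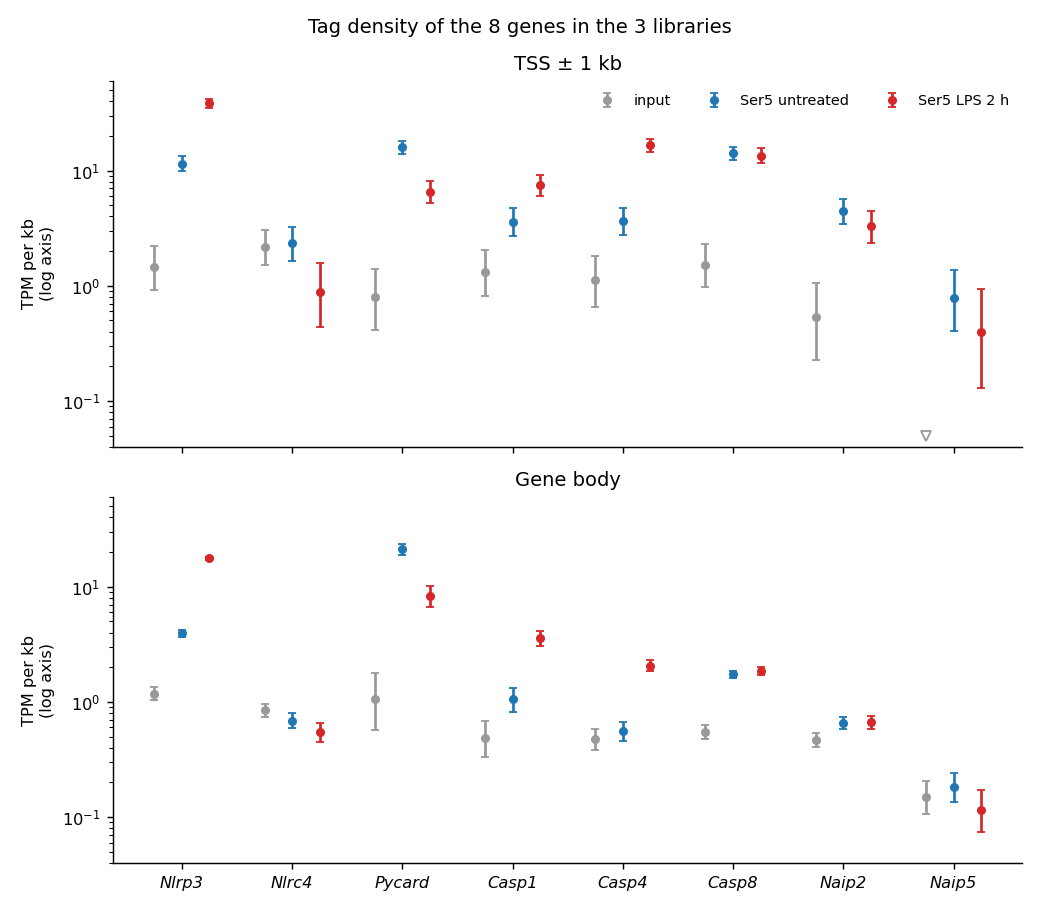
TPM per kb (y axis, log scale) of the 8 genes in input, untreated Ser5 and Ser5 after LPS, at the TSS ± 1 kb (top) and over the gene body (bottom), with exact Poisson 95% intervals. The open triangle marks 0 tags. At the TSS Nlrp3 went from 11.5 to 38.5 and Pycard from 15.9 to 6.56, while Nlrc4 after LPS, at 0.880, was below its input of 2.19.

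Nlrp3, the sensor, rose along its whole length. Its body held 763 Ser5 tags in untreated cells, 2789 after LPS and 226 in input, or 3.95, 17.6 and 1.18 TPM per kb. That made a ratio of 4.45 (4.11 to 4.83), or 4.87 per open position, the plain one above that of 98.9% of coding genes. At the TSS it held 175, 481 and 22 tags, a ratio of 3.35 (2.81 to 4.01). Both Ser5 libraries were above input, 3.34 times over the body untreated and 14.9 times after LPS. In 4 equal stretches from 1 kb after the TSS to the gene's end the ratio was 4.88, 4.39, 4.32 and 5.00, so the rise was of like size from 5′ to 3′, and in the 3 kb after the gene it was 4.84 (3.73 to 6.35). Coding starts lie 1118 bp apart, and windows of 500 bp on each side gave 3.16 (2.48 to 4.04) at the first and 3.40 (2.72 to 4.27) at the second, which did not differ beyond counting error. Over the body the authors' lists held 9 peaks in untreated cells and 17 after LPS. The longest after LPS ran over 6686 bp from chr11:59354063-59360748, across the TSS and into the gene, and held 364 untreated and 1248 LPS tags. In untreated cells a peak of 2099 bp covered the TSS, so Nlrp3 was already marked before LPS.

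Casp1, the caspase that matures IL-1β, rose more inside the gene than at its start. The body held 70, 195 and 32 tags (untreated, LPS, input), a ratio of 3.40 (2.57 to 4.53), and the TSS window 55, 93 and 20, a ratio of 2.06 (1.46 to 2.93). From 1 kb after the TSS onward it held 27 tags in untreated cells, equal in number to the 27 of the input, and 115 after LPS. The ratio there was 5.19 (3.39 to 8.21), whose interval lies above that of the TSS. The whole untreated body stood at 2.16 times the input, or 4.14 times when scaled to the tags outside peaks. Equal counts of untreated and input tags therefore need not mean background. In the 4 stretches the tags went from 13 to 50, 3 to 39, 4 to 18 and 7 to 8, so the last stretch, nearest to Casp4, had the lowest ratio, 1.39 (0.441 to 4.51). The single untreated peak spanned 395 bp at the TSS, whereas after LPS there were 5 peaks, the last centred 5154 bp into the gene.

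Casp4, which responds to cytosolic LPS, begins less than 2 kb after the end of Casp1 and had the highest TSS ratio of the 8, though its interval overlaps that of Nlrp3. Its TSS window held 56, 207 and 17 tags, a ratio of 4.50 (3.34 to 6.17), above that of 98.5% of coding genes. Over the body it held 118, 361 and 100 tags, a ratio of 3.73 (3.02 to 4.63), and 4.51 per open position. The promoter shown above, with its kB matches, lies inside this window. Before LPS the Casp4 body stood at 1.17 times the input (0.887 to 1.54), and a single peak of 405 bp sat on the TSS. After LPS the body was at 4.35 times the input (3.48 to 5.49) with 9 peaks. Scaled to the tags outside peaks, the body stood at 2.23 times the input untreated and 8.96 times after LPS. A peak of 551 bp centred at -605, between Casp1 and Casp4, was in the LPS list only and held 9 untreated, 40 LPS and 8 input tags. In the 4 stretches of the body the ratios were 4.33, 3.83, 3.15 and 3.07, with overlapping intervals. Annotated starts of other Casp4 transcripts 12571 and 14520 bp into the gene held few tags, 4 and 2 untreated and 19 and 7 after LPS.

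Pycard, the adaptor ASC, had the highest untreated density of the 8 genes and fell. Its short body of 1765 bp held 283 tags in untreated cells, 91 after LPS and 14 in input, or 21.1, 8.25 and 1.05 TPM per kb. The ratio was 0.392 (0.306 to 0.498), lower than in all but 5.61% of coding genes. At the TSS 243, 82 and 12 tags gave 0.411 (0.316 to 0.530). These windows share the first 1 kb of the gene, so the values are not separate measurements. From 1 kb after the TSS onward 63 untreated and 30 LPS tags gave 0.580 (0.363 to 0.910), which does not pass the rule. Ser5 nevertheless stayed above input after LPS, by 7.83 times (4.44 to 14.9) over the body. The 3 kb after the gene held 273 tags untreated and 104 after LPS, a ratio of 0.464 (0.367 to 0.584), and the 4 kb before the promoter window held only 20 and 8, beside 18 in input. A single untreated peak of 3515 bp covered the gene and its 3′ side, and after LPS 3 separate peaks lay over the gene. Casp1, which Pycard recruits, and Pycard thus moved in opposite directions, with ratios over the body whose intervals lie on either side of 1.

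Casp8, the death-receptor caspase, showed no change past the rule. Its body held 686, 605 and 216 tags, a ratio of 1.07 (0.962 to 1.20), and its TSS 215, 169 and 23, a ratio of 0.958 (0.778 to 1.18). Per open position the ratio was 1.41 over the body and 1.12 at the TSS, so that at the TSS its side of 1 is not settled. Casp8 has a second annotated coding start 7128 bp downstream, and the starts were both strongly marked. Within 500 bp of the first start there were 197 untreated and 151 LPS tags, a ratio of 0.934 (0.751 to 1.16), and within 500 bp of the second 141 and 158, or 1.37 (1.08 to 1.73). These intervals overlap. In the 4 stretches of the body the first, which holds the second start, had a ratio of 1.35 (1.14 to 1.59), and the others had 0.702, 0.857 and 0.747 with intervals that include 1.

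Nlrc4, which with its NAIP partners detects flagellin and secretion systems, carried little Ser5. It held 172, 112 and 209 tags over the body, a ratio of 0.794 (0.620 to 1.01), or 0.911 per open position, and both Ser5 libraries lay below input there, at 0.814 and 0.646 times. Scaled to the tags outside peaks they lay above it, at 1.56 and 1.33 times, so the order against input rests on the scaling. At the Nlrc4 TSS the tags fell from 36 to 11, a ratio of 0.372 (0.171 to 0.748), or 0.398 per open position, but the input had 33 there. Its only peak, in the untreated list, had a score of 57.92 where the lowest score listed is 50.0, and it held 30 untreated, 10 LPS and 16 input tags. Against its input the Nlrc4 TSS stood at 1.08 times (0.654 to 1.79) untreated and 0.402 times (0.183 to 0.815) after LPS. Scaled to the tags outside peaks, the values at the TSS were 2.06 and 0.827 times.

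Naip2 had a clear mark at its TSS in both libraries, 68 untreated and 41 LPS tags against 8 in input, with a ratio of 0.735 (0.486 to 1.10), and 0.827 per open position. Within 500 bp of the first start the tags went from 64 to 31, a ratio of 0.590 (0.371 to 0.920). The untreated peak at that start was open to 51.3% of untreated and 33.7% of LPS tag positions. Over the body 292, 241 and 206 tags gave 1.01 (0.845 to 1.20), and 1.24 per open position. Naip5 held 48, 25 and 39 tags over its body, a ratio of 0.635 (0.375 to 1.05) that became 1.15 per open position, so its direction cannot be read. At its TSS 12 and 5 tags, with 0 in input, gave 0.508 (0.140 to 1.55), and 1.67 per open position. Its only peak was centred at -995, outside the gene, and held 20 untreated, 6 LPS and 0 input tags in sequence of which 14.9% and 4.39% was open to untreated and LPS tags. A Naip5 level near the floor therefore says little about the gene.

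**Figure D4:**
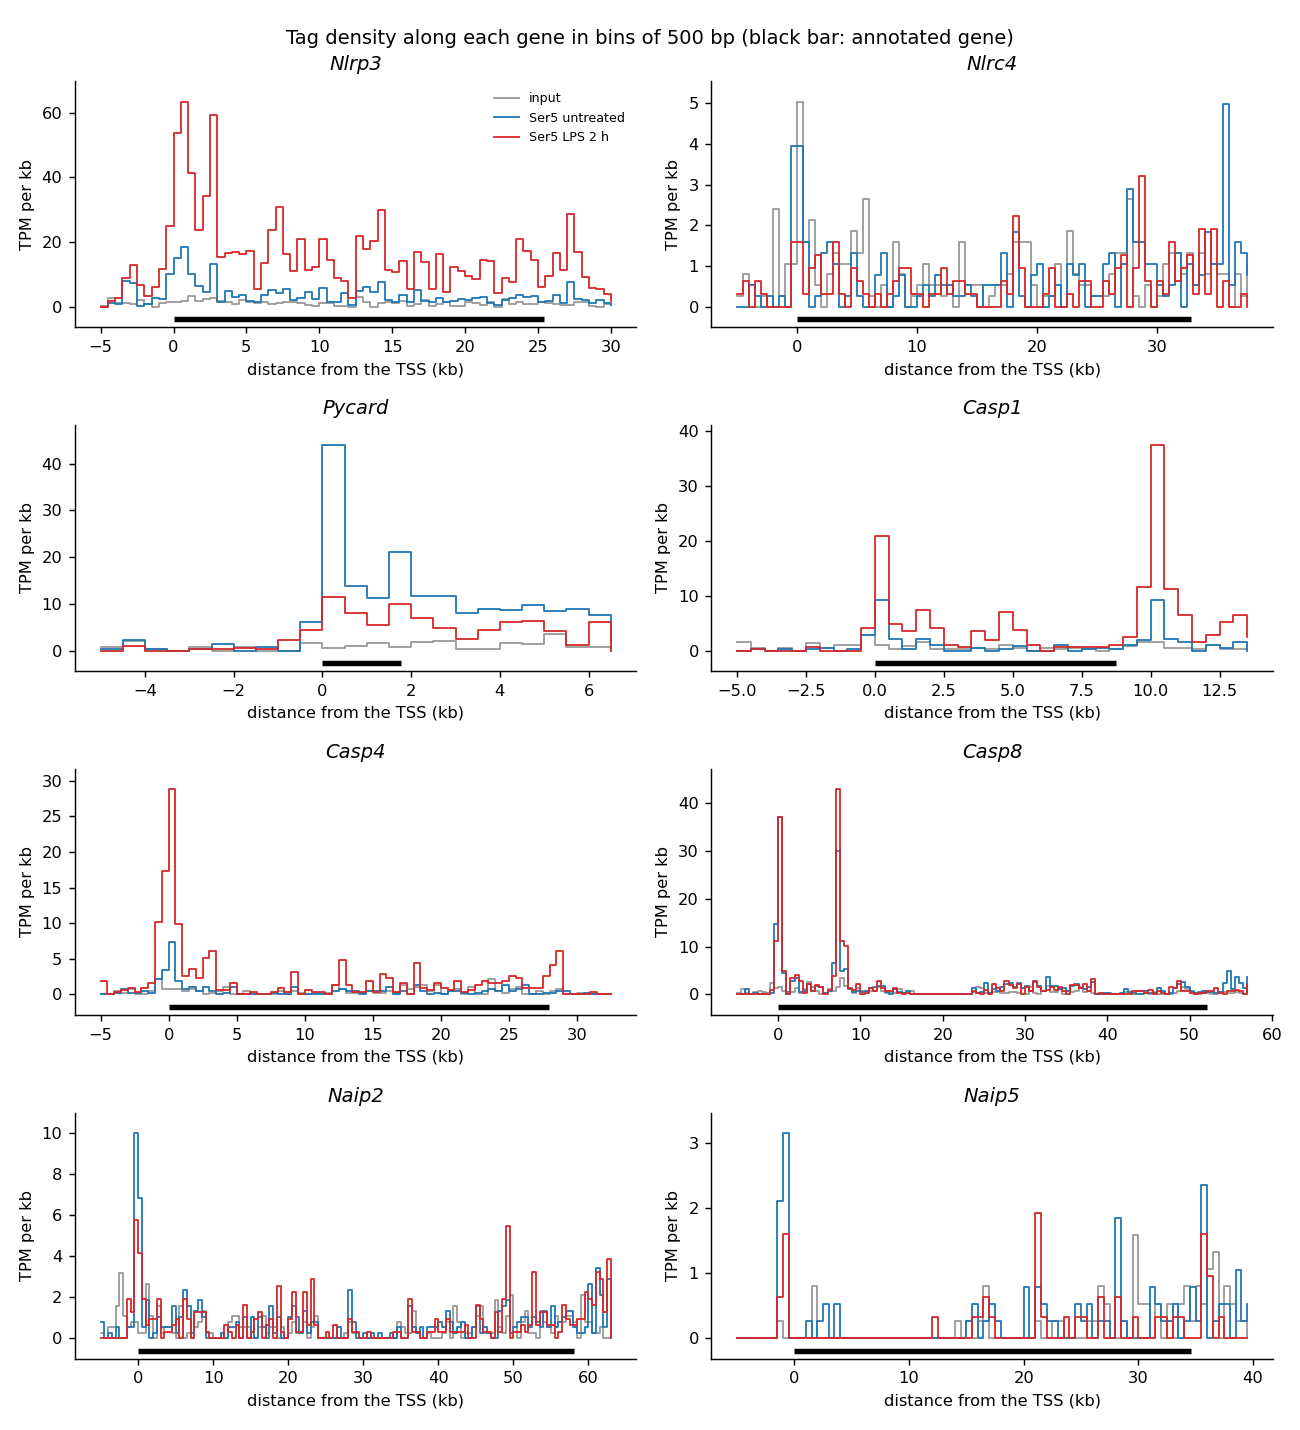
TPM per kb in bins of 500 bp (y axis, own scale in each panel) against distance from the TSS in kb for input, untreated Ser5 and Ser5 after LPS, with the annotated gene as a black bar. Nlrp3 after LPS is raised along the gene, Casp8 has a second summit at its start 7128 bp downstream, and the summit after the Casp1 gene is the Casp4 promoter.

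The share of Ser5 held at the TSS differed between the genes and, for some, between the libraries. The density at the TSS over that from 1 kb downstream to the gene's end was 10.4 at Casp8, 9.09 at Casp4, 7.89 at Casp1, 7.34 at Naip2, 4.20 at Naip5, 3.79 at Nlrc4, 3.36 at Nlrp3 and 1.47 at Pycard in untreated cells. The median over 13603 coding genes was 7.39, with quartiles of 2.00 and 15.8, so none of the 8 lay above the upper quartile. Those coding genes had at least 50 Ser5 tags over the body and a minimum downstream length. Pycard, with 0.764 kb downstream, does not reach that length. The values of the 8 depend on the window and are not corrected for the open share or for input. At Nlrc4 the input itself was denser at the TSS, 2.19 against 0.768 TPM per kb downstream. No Ser5 tag lay within 500 bp of the Naip5 TSS. With 500 bp on each side of the TSS, for which no quartiles were computed, the values rose to 19.1 at Casp8, 13.8 at Naip2, 13.3 at Casp4 and 13.2 at Casp1. After LPS the value dropped at Nlrp3 from 3.36 (2.82 to 3.98) to 2.42 (2.19 to 2.67) and at Casp1 from 7.89 (4.89 to 13.0) to 3.13 (2.36 to 4.15), in both cases with intervals that do not overlap. At Casp4 it went from 9.09 (6.36 to 12.9) to 11.6 (9.60 to 14.1) and at Casp8 from 10.4 to 9.11, within counting error. The 3 genes that rose therefore did so with different shapes, Casp1 and Nlrp3 more in the body and Casp4 alike at its start and in its body.

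All 8 genes had a peak at the TSS ± 1 kb in untreated cells, where 48.0% of coding genes had one. After LPS 6 had one, all but Nlrc4 and Naip5, beside 46.0% of coding genes. At p of at most 1e-10 the counts were 7 and 6, and with 50% of the peak in the window 7 and 5. The untreated Naip5 peak, centred at -995, lay across the edge of its window. Over the body 7 genes had a peak untreated and 6 after LPS, beside 53.3% and 50.6%. None of the 8 could gain a first TSS peak with LPS, since all had one untreated. Over the body only Naip5 could have gained one, and it did not. A first peak with LPS was seen in 1.02% of coding genes at the TSS and 1.48% over the body. The only TSS peaks of Nlrc4 and Naip5 were in the untreated list alone, as at 3.06% of coding genes. Over the body this held for Nlrc4, as for 4.20%. Neither is a firm loss. The Naip5 peak lay in sequence open to 14.9% of untreated and 4.39% of LPS tag positions. That of Nlrc4 scored 57.92, where the lowest score listed is 50.0. The genes that rose had more peaks over the body after LPS, from 1 to 5 at Casp1, 1 to 9 at Casp4 and 9 to 17 at Nlrp3. So did genes that did not rise, from 4 to 7 at Casp8, 1 to 3 at Naip2 and 1 to 3 at Pycard, which fell. A higher number of peaks was therefore not particular to the genes that rose.

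The other genes of the pathway were taken from lists of other sensors, caspases, substrates and release genes, regulators and Casp8 partners. Over the body 5.83% of coding genes rose and 11.3% fell, which stands beside the counts of every list. Of 12 other sensors found, 11 had enough tags over the body, of which 4 rose and 1 fell, with a median ratio of 1.09. Among those that rose, Nlrp6 held 4 untreated, 13 LPS and 31 input tags, with no peak. Nod2, a sensor of bacterial muramyl dipeptide, had the highest ratio, 5.79 (545 untreated and 2587 LPS tags), followed by Mefv (pyrin) at 5.46 (23 and 103). Nlrp12 at 0.672 and Nlrp1b at 0.487 were the lowest. None of the 4 other caspases counted with enough tags passed the rule in either direction. The highest were Casp12 at 1.34 (0.517 to 3.52), with 10 and 11 tags, and Casp6 at 1.08, and the lowest Casp2 at 0.934 and Casp9, the initiator of mitochondrial apoptosis, at 0.719. Casp1 and Casp4 were thus the caspases past the rule among those counted.

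In the list of substrates and release genes, which does not hold caspase substrates only, 3 of the 4 cytokine genes rose. Of 7 genes 3 rose, against 5.83% of coding genes, and none fell, against 11.3%. Those that rose were Il1b at 44.5 (35 and 1277 tags), Il1a at 7.20 (11 and 65) and Il18 at 4.37 (17 and 61). After LPS their bodies stood at 24.8, 1.51 and 2.30 times the input, and Il1a had no peak in either library. The cytokine gene Il33 did not pass the rule, at 1.32 (0.821 to 2.12) with 37 and 40 tags and no peak. The lowest were Ninj1, which ruptures the membrane of dying cells, at 1.26 (996 and 1030 tags) and Dfna5 at 0.871. Gsdmd, the pore-forming substrate, held 171 and 205 tags, a ratio of 1.46 (1.19 to 1.80). In untreated cells the 3 cytokine genes that rose stood at 0.209 to 0.558 times the input with plain scaling, while Gsdmd and Ninj1 were already at 4.34 and 12.5 times.

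Among 12 triggers and regulators 3 rose and 3 fell. The guanylate-binding proteins Gbp5 at 71.6 (37 and 2173 tags) and Gbp2 at 45.8 (29 and 1090), which help to expose bacterial LPS to Casp4, had the highest ratios. P2rx7, the ATP-gated channel whose opening activates Nlrp3, at 0.312 (750 and 192 tags) and Txnip, a thioredoxin-binding protein, at 0.296 (1097 and 266) had the lowest. Of the 8 genes of the Casp8 complex 2 rose and 1 fell. Mlkl, the effector of necroptosis, at 2.73 and Cflar, which inhibits Casp8, at 2.45 (1906 and 3835 tags) were highest, and Ripk3 at 0.632 and Fadd, the adaptor of Casp8, at 0.391 (355 and 114) lowest. Pycard and Fadd fell over the body, to 0.392 and 0.391. Tradd, in the list of Fadd, did not pass the rule, at 0.743 (0.589 to 0.936). Of coding genes 5.83% rose over the body and 11.3% fell. Cflar rose over the body where Casp8 did not. The Cflar TSS held 216 untreated and 132 LPS tags, or 0.745 (0.595 to 0.929). The median ratios of these lists were 1.01 for the caspases, 1.46 for substrates and release, 1.02 for regulators and 1.06 for the Casp8 complex. The median of coding genes was 0.874.

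**Figure D5:**
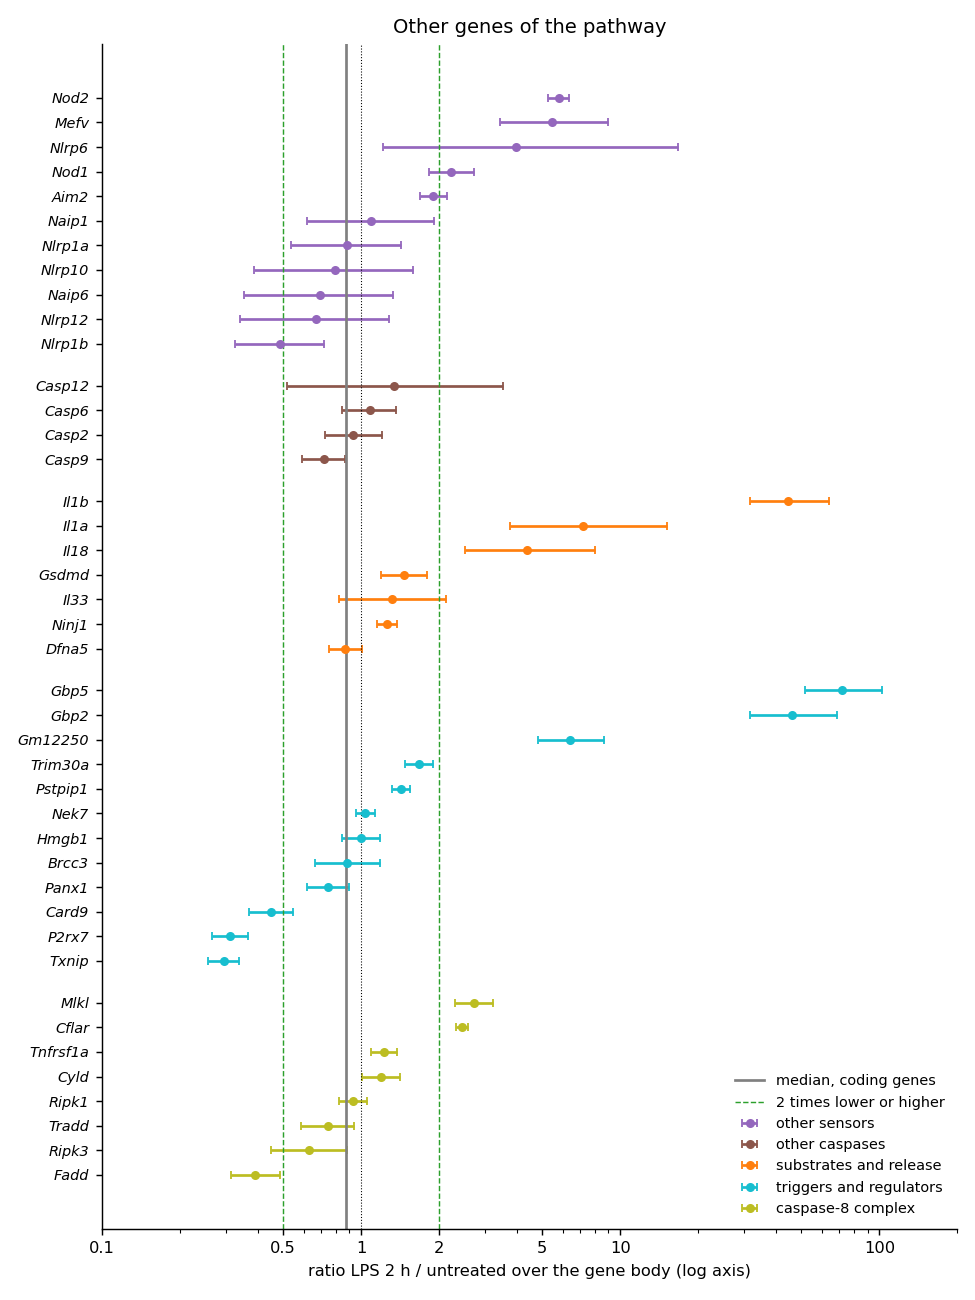
Ratio of LPS to untreated Ser5 TPM over the gene body (x axis, log scale) with 95% counting intervals for the other pathway genes with at least 10 tags, grouped by list. Gbp5, Gbp2 and Il1b lie far to the right at 71.6, 45.8 and 44.5, while Txnip, P2rx7, Fadd, Card9 and Nlrp1b lie left of the lower line.

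Coding genes with at least 50 Ser5 tags over the body were ranked by the distance of their log2 densities from those of each of the 8 genes, over 4 values (body and TSS in the 2 Ser5 libraries). The nearest of 14336 genes was Slc15a3 for Nlrp3 (distance 0.223), Gpr160 for Nlrc4 (0.384), Gpsm3 for Pycard (0.503), Icam5 for Casp1 (0.419), Fas for Casp4 (0.516), Smcr7l for Casp8 (0.0932), Layn for Naip2 (0.200) and Ccdc88c for Naip5 (0.335). Slc15a3, an endolysosomal peptide transporter, went from 4.03 to 17.7 TPM per kb over the body, beside 3.95 to 17.6 at Nlrp3. Fas, a death receptor, went from 0.541 to 2.18, beside 0.554 to 2.07 at Casp4. The 4 values of a gene come from the same libraries and share their depth.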

How the data were processed

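The study's sample labels name mm9 and Bowtie. By its methods the authors shortened the reads, aligned them with Bowtie so that each tag had 1 match of up to 2 mismatches, and called peaks with MACS for each Ser5 library separately, with the input as control and 1e-05 as the p-value threshold. Versions are not given in the sources used here. The deposited tag lists hold the position and strand of each tag, duplicates kept, and the score in the deposited peak lists is minus 10 times log10 of the MACS p-value. The methods assign the tag lengths of the Ser5 libraries the other way round from the files, and the files' lengths were used. Positions were used as deposited. Tags fitted unique sequence better when read as counted from 0, a shift of 1 base that was tried as an alternative.

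Tags were counted by 5′ end over the gene record and within 1 kb of the 5′-most start of a coding transcript (GENCODE M1), scaled to the tags on chromosomes 1 to 19 and X. Counts have exact Poisson intervals and ratios exact intervals conditional on the sum, at 95%. They cover counting error only, since PCR reads are not independent molecules. The rule of size was a ratio of at least 2 with at least 10 tags, a count of 0 being set to 0.5. A peak belonged to a region when they shared at least 1 bp. Unique windows were counted against the whole mm9 assembly on both strands with up to 2 mismatches. Promoters came from the same genome. The named genes were all 8 genes, the nearest gene in density, and Ccl5, Tnf, Il1b and Nfkbia. For each list the 2 highest and the 2 lowest body ratios among genes with at least 10 tags were also named. Gsdmd, Il33, Nlrp6, Tradd, Card9, Camp, S100a8, Cd79a and Zbtb46 were named after their values were seen. The windows at separate starts, the 4 stretches and the peaks near the genes were also added after values were seen. Naip7 of the sensor list was not found by that symbol, and 2 genes of the list of other caspases are not reported here. The genes and lists were chosen with earlier results of these data known. Python 3.11.15, numpy 2.4.6, pandas 2.3.3, scipy 1.17.1, numba 0.67.0 and matplotlib 3.10.9 were used, and the counting, interval and uniqueness functions were tested on simulated data.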

Additional observations from a re-analysis of the deposited data

How the results depend on the processing

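No paired analysis was possible because each condition had 1 library, and for the same reason no library could be left out. Counting tags at 1 per position and strand, scaling to tags outside peaks, moving tags by 75 bp or by 1 base, scaling to unique positions and other windows kept the body ratio of LPS to untreated between 4.36 and 4.87 at Nlrp3, 3.39 and 5.19 at Casp1, 3.52 and 4.51 at Casp4, and 0.391 and 0.580 at Pycard. The ratio left its counting interval per unique position over the bodies of Nlrp3 (4.87), Casp8 (1.41), Naip2 (1.24) and Naip5 (1.15). The ratio at the Naip5 TSS did so too (1.67). Without the first 1 kb the ratio left its interval at Casp1 (5.19) and Pycard (0.580), and Pycard no longer passed the rule of size. Within 500 bp of the Naip5 TSS there were no Ser5 tags, so its TSS over downstream density became 0 in both libraries, while that of untreated Casp8 rose from 10.4 to 19.1. Scaling to the tags outside peaks raised every ratio to input and moved the median body ratio of coding genes from 0.874 to 0.941 (log2 -0.19 to -0.09).

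With at least 50 tags the genes of the 8 that fell at the TSS numbered 1, and coding genes that rose at the TSS 384. With no minimum of tags coding genes that rose numbered 1767 over the body and 2982 at the TSS, and those that fell at the TSS 3663. Other sensors that fell over the body numbered 2 with no minimum and 0 with scaling to tags outside peaks. At the TSS 6 rose and 5 fell with no minimum and 1 fell with at least 50 tags. Of the other caspases 1 fell over the body and 1 rose at the TSS with no minimum. Of the substrates and release genes 1 rose at the TSS with at least 50 tags and 2 fell with no minimum. In the Casp8 complex 1 fell at the TSS at 1 tag per position and with scaling to tags outside peaks. The causes were not tested, except that a minimum changes which genes are counted. Peak counts of the 8 genes stayed within 1.5 times at p of at most 1e-10 and with 50% overlap. With 5 to 50 tags in a window, as at Nlrc4 and Naip5, only changes of several times exceed counting error.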

Other observations

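Peaks within 10 kb of the 8 genes that overlap no annotated gene were listed after their values were seen. Upstream of Nlrp3 a peak centred 2973 bp before the gene was in both lists and held 54 untreated, 61 LPS and 4 input tags, while a peak centred 2383 bp before the gene, in the LPS list only, held 1, 20 and 3 tags. After the 3′ end of Nlrp3 an LPS peak at chr11:59380980-59383772 held 67 untreated and 272 LPS tags. After the 3′ end of Casp8 the untreated list held 3 peaks, centred 2472, 3597 and 5070 bp beyond the gene, with 28, 14 and 10 untreated tags and 2, 3 and 2 after LPS, and the LPS list held none there. In the 3 kb after the Casp8 gene LPS over untreated came to 0.395 (0.188 to 0.775), beside 1.07 over its body. Beyond Pycard the untreated list held 5 such peaks, from 1872 to 5606 bp after the gene, and the LPS list 2. Whether these regions act on the genes they lie near was not tested.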
